A study of Homo sapiens with 6 samples.

Results

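Cholesterol synthesis and uptake genes were followed here through 8 members, HMGCS1, SQLE, INSIG1, MVK, MSMO1, IDI1, STARD4 and SREBF2. They were found by gene symbol, and all 8 were among the 13271 genes of the deposited table. Cells of 5637, a human bladder cancer line, had been given either an empty vector (control) or a construct for MAT1A overexpression, with Lipofectamine 3000 at 50% confluency, and RNA was taken 48 h later. Each group had 3 libraries, and both groups share the cell line, the medium and the lipid reagent. The labels name neither the promoter that drives MAT1A nor the origin of the replicates, which may be technical repeats, and each p-value below speaks of the scatter among these 6 libraries alone. The comparison asks which transcripts differed after MAT1A, the gene of the liver form of methionine adenosyltransferase, was introduced.

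Cells make cholesterol from acetyl-CoA through mevalonate, isoprene units, squalene and a series of sterols. The pathway is governed by SREBP transcription factors, made as membrane proteins of the endoplasmic reticulum. When sterols are scarce, SCAP carries them to the Golgi, proteases release the active part, and it turns on genes of synthesis and uptake. When sterols are plentiful, INSIG proteins hold SCAP back. Dividing cells, tumour lines among them, depend on this supply for their membranes. SREBF2 encodes the SREBP most devoted to cholesterol, and INSIG1 is both a brake on the pathway and one of its target genes. HMGCS1, MVK, IDI1, SQLE and MSMO1 encode enzymes of successive parts of the route, and STARD4 encodes a soluble carrier that moves cholesterol between membranes.

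Sterol-regulated promoters are known for a sterol regulatory element bound by SREBP beside boxes for the helper factors NF-Y and Sp1, so the bases before the starts of the members are shown first. RefSeq promoters on GRCh38.p14 were matched by symbol for 7 of the 8 members, with 10 starts in all; SQLE was not matched. The stretches below belong to the genes whose values the results turn on, run 5′ to 3′ on the strand of the gene, and have motif matches in capitals. For STARD4, MSMO1 and INSIG1 they end where the first annotated exon begins. For SREBF2 and MVK, whose windows lie within exons of neighbouring genes, 30 bases are given. The MVK window, 109573544 to 109573793, is counted from the RefSeq start. GENCODE, used for the gene positions below, starts MVK at 109573255. The MVK window and the stretch shown thus lie inside the gene as GENCODE places it. The window holds 29 bases of MVK exon.
STARD4, chr5:111512591-111512785, minus strand: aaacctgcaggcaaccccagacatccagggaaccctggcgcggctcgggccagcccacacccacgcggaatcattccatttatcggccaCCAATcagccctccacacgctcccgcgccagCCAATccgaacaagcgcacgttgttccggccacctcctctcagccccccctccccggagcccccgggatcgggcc
MSMO1, chr4:165327419-165327622, plus strand: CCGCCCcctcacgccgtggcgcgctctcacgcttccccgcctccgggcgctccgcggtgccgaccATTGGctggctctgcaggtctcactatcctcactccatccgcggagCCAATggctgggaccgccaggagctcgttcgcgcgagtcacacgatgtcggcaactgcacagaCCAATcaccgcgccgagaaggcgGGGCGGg
INSIG1, chr7:155297628-155297775, plus strand: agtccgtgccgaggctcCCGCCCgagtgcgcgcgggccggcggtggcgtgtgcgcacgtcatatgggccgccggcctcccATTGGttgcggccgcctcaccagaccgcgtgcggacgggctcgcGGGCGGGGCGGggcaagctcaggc
MVK, chr12:109573694-109573723, plus strand: tattgaCCAATgttcaagcctATTGGtaaa
SREBF2, chr22:41832962-41832991, plus strand: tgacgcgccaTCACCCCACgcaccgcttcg

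The motifs searched in the 250 bases before each start, on both strands, were TCACNCCAC (the core of the sterol regulatory element), CCAAT (the NF-Y box, ATTGG on the other strand) and GGGCGG (the Sp1 box, CCGCCC on the other strand). The sterol element core was found before SREBF2, from base -133 to -125, and in 1 of the 7 matched members; of the 35116 promoters of the table, 0.883% hold it. A CCAAT box was found in all 7 matched members, in 8 of their 10 starts, against 32.0% of all promoters. A GGGCGG box was found in all 10 starts, against 42.6% of all promoters. MVK had 5 CCAAT boxes, MSMO1 4 and STARD4 2, and these 3 genes carried 2, 2 and 1 GGGCGG boxes. INSIG1 had 1 CCAAT and 5 GGGCGG boxes, and SREBF2 had 1 and 2. For HMGCS1 the counts were 2 and 2 at start 1, and 0 and 2 at start 2. For IDI1 they were 0 and 3 at start 1, 2 and 1 at start 2, and 3 and 2 at start 3. Only exact matches were counted, so a member without one may still hold a stretch that differs from the core by a base. These matches describe letters in a short window and say nothing of binding in these cells.

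**Figure D1:**
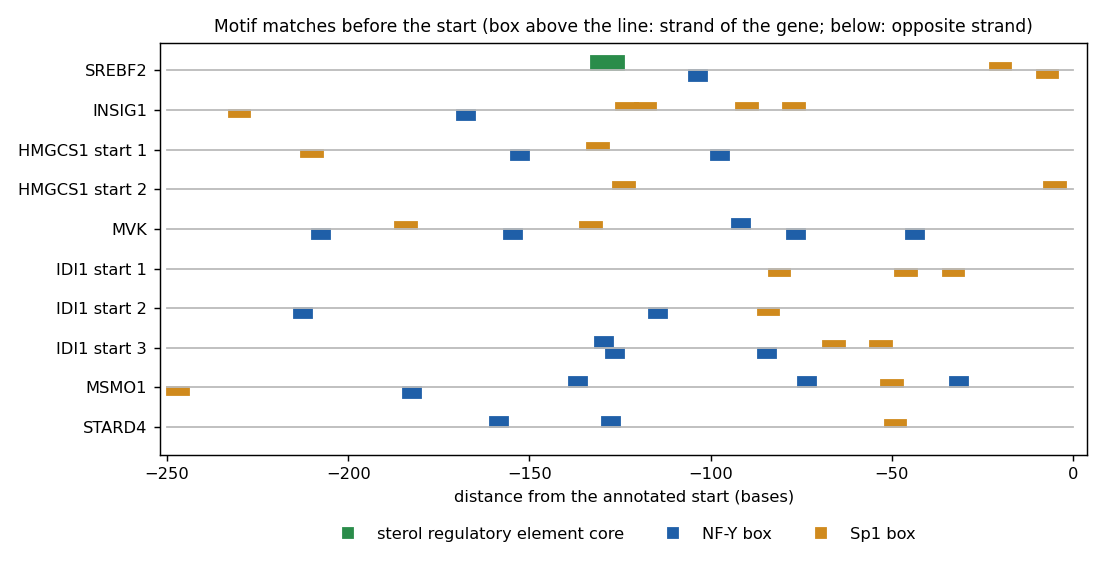
Motif matches in the 250 bases before each annotated start of the 7 matched members (x axis, distance from the start in bases; rows, starts; green, sterol regulatory element core; blue, CCAAT; orange, GGGCGG). The sterol element core appears once, before SREBF2, while every start has at least 1 GGGCGG box.

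The control libraries held 17.4 to 20.7 M recovered reads and the MAT1A libraries 18.7 to 21.6 M. Levels are given on the deposited CPM-like scale, and values of a group are listed in the order of its libraries 1, 2 and 3. MAT1A itself was 1.09, 0.253 and 4.54 in the control group and 1805, 1834 and 1917 in the MAT1A group, as the labels have it. Of 16 urothelial and basal epithelial markers, 14 were listed, EPCAM and the keratins among them, and UPK1A and UPK3A were not. Their values summed to 11486 to 11779 in control and 12265 to 13485 in MAT1A libraries, and of 13 tested 7 rose and 1 fell (limma). Among all tested genes, limma called 4.01% higher and 7.4% lower. Skeletal muscle markers, 20 of 22 listed, differed strongly between libraries: their values summed to 565, 183 and 118 in the control group and to 114, 58.5 and 55.5 in the MAT1A group, with 16 of 19 tested genes lower in the MAT1A group. Fibroblast markers, 4 of 8 listed, with DCN, LUM, PDGFRA and PDGFRB not listed, summed to 203 to 319 in control and 176 to 187 in MAT1A libraries. Of these 4, all tested, 0 rose and 1 fell (limma). PTPRC, PECAM1 and ALB, defining genes of leukocytes, endothelium and hepatocytes, were not listed; 1 of 6 leukocyte, 1 of 4 endothelial and 0 of 5 hepatocyte markers were, with sums of at most 1.66. Control 1 thus stands apart in muscle and fibroblast genes, and values without it are given below where it changes a call or moves a value by over 1.5 times. The part of these genes in the results was not tested.

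All 8 members had a lower mean in the MAT1A libraries than in the control libraries, and the differences were modest. STARD4, MVK and MSMO1 fell (limma, Benjamini-Hochberg adjusted p under 0.05 over 12866 genes), and HMGCS1, SQLE, INSIG1, IDI1 and SREBF2 did not pass. That is 3 of 8 lower and 0 of 8 higher, where 7.4% of all tested genes were called lower, 4.01% higher and 11.4% in either direction. By unadjusted p under 0.05, 5 of 8 were lower and 0 higher, where 14.2% of all tested genes were lower and 12% higher. On the recovered reads, edgeR and limma-voom each called 3 of the 8 lower, where they called 7.34% and 7.21% of all genes lower, and DESeq2 called 2, where it called 4.96%. The median log2 change of the 8, as the MAT1A mean minus the control mean of log2(value + 1), was -0.15, against 0.0040 for all tested genes. Of the 8, 5 had every MAT1A value below every control value, as did 15.6% of tested genes, and 0 of 8 had every MAT1A value above, as did 14.7%. Fewer cells that express a gene and less RNA per cell cannot be told apart in these bulk samples.

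**Figure D2:**
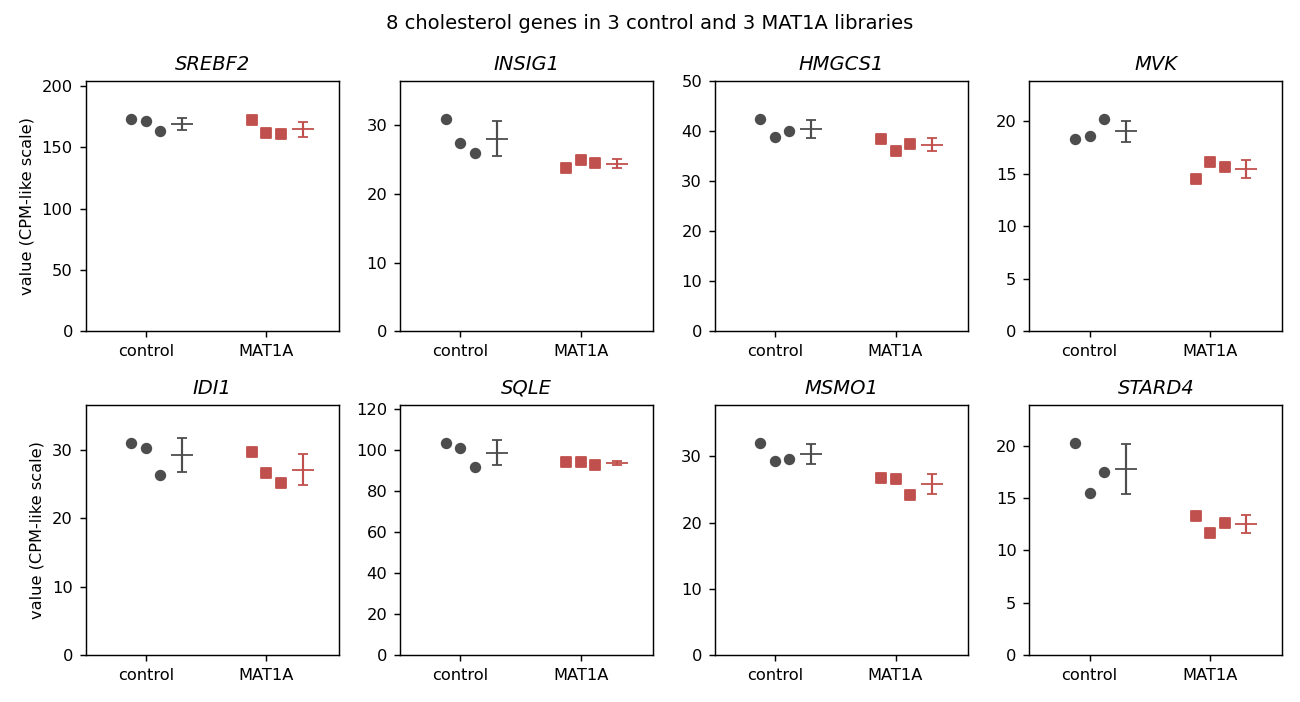
Values of the 8 members on the deposited CPM-like scale (y axes from 0), with 1 point per library in the order 1, 2, 3 (circles, control; squares, MAT1A) and mean ± SD over 3 libraries beside them. The groups are apart for INSIG1, HMGCS1, MVK, MSMO1 and STARD4 and overlap for SREBF2, IDI1 and SQLE; STARD4 shows the largest fall of the 8.

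The regulators come first. SREBF2, on chromosome 22 at 41833079 to 41907308 of GRCh38, stood at 173, 171 and 163 in the control group and at 172, 161 and 160.5 in the MAT1A group. The groups overlapped, with MAT1A 1 above control 2 and control 3. The log2 change was -0.039 ± 0.036 (SE, n = 3 per group; limma adjusted p = 0.537), with a 95% interval from -0.11 to 0.038. As ratios, the ends of the interval are 0.924 and 1.03. Without control 1 the SREBF2 change was -0.022, and with any 1 library left out it ranged from -0.070 (without MAT1A 1) to -0.021 (without MAT1A 3). Leaving out control 3 (-0.063) or MAT1A 2 (-0.025) also moved it by over 1.5 times, and the gene was called in none of these fits.

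INSIG1, on chromosome 7 at 155297776 to 155310235, had values of 30.9, 27.4 and 25.9 in the control group and of 23.7, 25.0 and 24.6 in the MAT1A group. Every MAT1A library was below every control library, though MAT1A 2 and control 3 were less than 1 unit apart. The means were 28.1 ± 2.55 and 24.4 ± 0.644 (SD, n = 3 each), and the log2 change of -0.19 ± 0.063 (SE) missed the threshold (limma adjusted p = 0.0648; 95% interval -0.32 to -0.056). With the replicate number as a block it passed (adjusted p = 0.0315), as it did after each library's trend with gene length and GC content was removed (-0.20, adjusted p = 0.0315), a setting that called 8.86% of all tested genes lower. Without control 1, the library with the highest INSIG1 and the highest muscle marker sum, the log2 change was -0.12 (adjusted p = 0.29), and without control 3 it was -0.24 and passed (adjusted p = 0.0456).

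Of the early enzymes, HMGCS1 encodes the synthase that makes HMG-CoA, an early intermediate of the route. It lies on chromosome 5 at 43289395 to 43313512. Its values were 42.4, 38.8 and 40.0 in the control group and 38.5, 36.0 and 37.4 in the MAT1A group, so that the groups did not overlap but nearly met. The log2 change was -0.11 ± 0.050 (SE, n = 3 per group; limma adjusted p = 0.165). An antisense gene, AC114947.2, covers 703 bases of its exons, 14.9% of them, and 18.8% of its 36-base windows occur in transcripts of other genes.

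MVK encodes mevalonate kinase, which puts the first phosphate on mevalonate. It lies on chromosome 12 at 109573255 to 109598117. Its values were 18.3, 18.6 and 20.2 in the control group and 14.4, 16.1 and 15.7 in the MAT1A group. Here control 1 was the lowest control library, the reverse of the other members, and the groups were clearly apart. The mean fell by 19.1%, from 19.0 ± 1.00 to 15.4 ± 0.852 (SD, n = 3 each), a log2 change of -0.29 ± 0.067 (standard error; limma adjusted p = 0.0104). Its call was lost without control 3 (adjusted p = 0.0701) or MAT1A 1 (0.0553), with log2 changes of -0.25 each. MVK shares 306 bases of exon, 4.72% of its exon length, with MMAB on the opposite strand, a gene of cobalamin metabolism named here for this overlap. The TruSeq library kit named in the labels does not mark strand, so reads there could not be told apart; MMAB stood at 13.5 ± 0.144 and 14.8 ± 0.985, a log2 change of 0.11 (limma adjusted p = 0.32).

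IDI1 encodes the isomerase that interconverts the isoprene units. It lies on chromosome 10 at 1039152 to 1049170. Its values were 31.1, 30.4 and 26.4 in the control group and 29.6, 26.6 and 25.2 in the MAT1A group. Control 3 lay below MAT1A 1 and MAT1A 2, and the log2 change of -0.10 ± 0.069 (SE, n = 3 per group) did not pass (limma adjusted p = 0.364; 95% interval -0.25 to 0.042). It was -0.062 without control 1, -0.18 without control 3, -0.17 without MAT1A 1 and -0.054 without MAT1A 3, and was called in none of these fits. Within same-numbered pairs, MAT1A n minus control n, IDI1 was nonetheless lower each time, by log2 differences of -0.065, -0.18 and -0.066. IDI2-AS1 on the opposite strand covers 643 bases of its exons, and 6.66% of its 36-base windows occur in other genes.

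In the later, sterol-forming part of the route, SQLE encodes squalene epoxidase, a second control point of the pathway. Its values were 103, 101 and 91.7 in the control group and 94.2, 93.9 and 92.6 in the MAT1A group. Control 3 was the lowest of all 6 libraries, while the 3 MAT1A libraries were close to one another. The log2 change was -0.074 ± 0.043 (SE, n = 3 per group; limma adjusted p = 0.29; 95% interval -0.16 to 0.016). It was -0.040 without control 1 and -0.13 without control 3, called in neither fit.

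MSMO1 encodes the sterol methyl oxidase that helps strip methyl groups from lanosterol products. It lies on chromosome 4 at 165327623 to 165343160. Its values were 32.0, 29.4 and 29.5 in the control group and 26.8, 26.6 and 24.1 in the MAT1A group, with no overlap between groups. The mean fell by 14.8%, from 30.3 ± 1.49 to 25.8 ± 1.47 (SD, n = 3 each), a log2 change of -0.22 ± 0.058 (standard error; limma adjusted p = 0.0201). The call was lost without control 1 (log2 change -0.18, adjusted p = 0.11), without MAT1A 3 (-0.18, 0.0645) and with DESeq2 (-0.23, 0.0529). Of the 36-base windows of its longest transcript, 10.8% also occur in transcripts of other genes, so part of its reads are uncertain.

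STARD4, on chromosome 5 at 111496033 to 111512590, showed the largest change of the 8. Its values were 20.3, 15.5 and 17.5 in the control group, from 353, 306 and 363 reads, and 13.3, 11.6 and 12.6 in the MAT1A group, from 247, 226 and 270 reads. All 3 MAT1A libraries lay below the lowest control library. The mean fell by 29.5%, from 17.7 ± 2.41 to 12.5 ± 0.852 (SD, n = 3 each), a log2 change of -0.47 ± 0.087 (standard error; limma adjusted p = 0.00191; 95% interval -0.65 to -0.28). The fall was called in each of the 6 fits with 1 library left out, with adjusted p up to 0.0147, and was smallest without control 1 (log2 change -0.37). STARD4 shares 124 bases of exon with STARD4-AS1 on the opposite strand, whose level was low, 1.51 ± 0.213 and 1.30 ± 0.231 (log2 change -0.13, limma adjusted p = 0.575).

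Control 1 was the highest library for 7 of the 8, MVK being the exception, and the mean deviation of the 8 from their own averages was 0.17 in control 1, 0.064 in control 2 and 0.047 in control 3 on the log2 scale. In the 3 MAT1A libraries it was -0.062, -0.10 and -0.12. The muscle markers were also highest in control 1 (565 against 183 and 118). Without control 1 the median log2 change of the 8 was -0.099, and STARD4 and MVK were still called. In same-numbered pairs, 7 of the 8 members were lower in MAT1A in all 3 pairs, as were 24.4% of tested genes; SQLE was higher in pair 3 by a log2 difference of 0.014. With the replicate number as a block, 4 of the 8 were called lower and 0 higher, where 10.4% of all tested genes were called lower and 7.57% higher; INSIG1 was the one added.

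Per kilobase of exon the control levels ran from 22.9 for SQLE and 22.4 for SREBF2, through 10.5 for MSMO1, 8.59 for HMGCS1, 7.69 for INSIG1 and 6.74 for IDI1, to 3.12 for STARD4 and 2.94 for MVK. The control ranges of SQLE and SREBF2 overlapped, as did those of HMGCS1 and INSIG1, of INSIG1 and IDI1, and of STARD4 and MVK. The called falls of STARD4 and MVK were thus in the members with the lowest levels per kilobase, and their differences rested on 226 to 418 reads per library. For STARD4 the spread among control libraries was 13.6% of the mean, above the 5.83% that counting alone gives at its mean reads over all 6 libraries. For MVK it was 5.27% against 5.45%, so near that they are not ranked. Counting alone gives a little less at the control means of both genes, where reads were more.

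**Figure D3:**
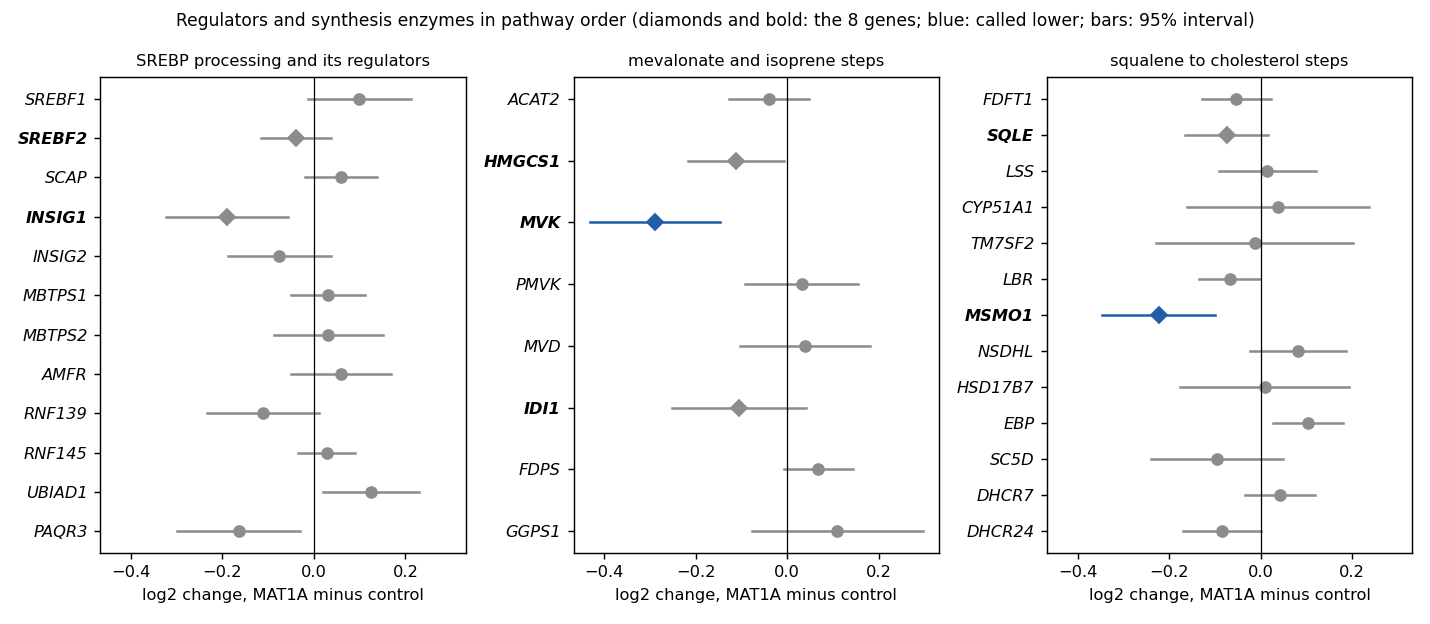
Log2 change (x axis, log2(value + 1) in MAT1A less that in control) with its 95% interval for tested genes of 3 lists in pathway order (1 gene is not drawn); diamonds and bold names are members, blue marks called falls. MVK and MSMO1 stand to the left of 0, while most of their neighbours lie close to it.

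In the rest of the synthesis route no fall like those of MVK and MSMO1 passed the test. The members were chosen with earlier results of these data known, so leaving them out flattens the remainder by that choice. The contrast is a description and no finding about the route. Of 22 tested genes on the mevalonate and isoprene list and the squalene to cholesterol list, 2 fell, MVK and MSMO1, and 0 rose. Of all tested genes, 7.4% were called lower and 4.01% higher, so the counts are near those shares. The median log2 change of the 22 was -0.011. Leaving out the members, 17 enzymes remained, with 0 called by limma, edgeR, DESeq2 or limma-voom and a median of 0.015. Limma called 11.4% of all tested genes in either direction. At an unadjusted limma p under 0.05 there were 2 of the 17, against 26.2% of all tested genes. EBP, a sterol isomerase gene chosen after its values were seen, stood at 69.7 ± 0.426 and 74.9 ± 0.452 (SD, n = 3 each) with no overlap (log2 change 0.10, limma adjusted p = 0.0765).

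The list of SREBP processing and its regulators had 12 tested genes, with a median log2 change of 0.029. Limma, edgeR, DESeq2 and limma-voom each called 0 of them, where limma called 11.4% of all tested genes. Before adjustment 3 were under 0.05, as were 26.2% of all tested genes. RNF145, a ubiquitin ligase gene with the highest level on the list, stood at 282 ± 5.27 and 287 ± 3.29 (SD, n = 3 each; log2 change 0.028, limma adjusted p = 0.596). With the replicate block 2 genes of the list were called lower, INSIG1 and PAQR3, as were 10.4% of all tested genes. For PAQR3 the limma adjusted p was 0.0265 with the block and 0.106 without it. PAQR3 encodes a Golgi anchor protein, and its log2 change was -0.16.

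Uptake and intracellular transport genes went in both directions. Of 18 tested, STARD4 fell and 3 rose, where 7.4% of all tested genes were called lower and 4.01% higher. The median log2 change was -0.0034. LRPAP1, which encodes a chaperone of lipoprotein receptors, rose from 128 ± 3.22 to 148 ± 7.41 (SD, n = 3 each; log2 change 0.21, limma adjusted p = 0.00186). SCARB1, the gene of a receptor for high-density lipoprotein, rose from 84.5 ± 1.28 to 95.6 ± 3.76 (0.18, limma adjusted p = 0.00652). NPC2, which encodes a lysosomal cholesterol carrier, rose from 234 ± 6.54 to 254 ± 6.69 (0.12, limma adjusted p = 0.0261). NPC2 lost its call without control 1 (0.13, adjusted p = 0.0569), and on leaving out MAT1A 1, control 2 or control 3 as well (adjusted p at most 0.165).

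In the neighbouring lipid lists few genes passed, where limma called 7.4% of all tested genes lower and 4.01% higher. Of 10 tested LXR and efflux genes 1 fell, ABCA1, which encodes a cholesterol exporter and went from 16.0 ± 0.681 to 13.4 ± 1.10 (SD, n = 3 each; log2 change -0.24, limma adjusted p = 0.0424). The call held without MAT1A 3, and was lost with DESeq2 and on leaving out any of the other 5 libraries (adjusted p up to 0.157; without control 1, log2 change -0.27 and adjusted p = 0.0596). Of 16 tested fatty acid synthesis genes 1 rose, the elongase gene ELOVL6 (45.4 ± 0.746 to 51.0 ± 2.93; log2 change 0.16, limma adjusted p = 0.0371), a call that held without MAT1A 1 and was lost with DESeq2 and on leaving out any of the other 5 libraries (without control 1, 0.16 and adjusted p = 0.117). With the replicate block 3 rose there, ELOVL6, ACACA and FADS1 (log2 changes of 0.10 and 0.099 for the last pair), and 1 fell, ACSL3 (-0.085). That setting called 7.57% of all tested genes higher and 10.4% lower. Of 13 tested isoprenoid branch enzymes 0 were called by limma, edgeR, DESeq2 or limma-voom. At an unadjusted limma p under 0.05 there was 1, against 26.2% of all tested genes. The most abundant of them, the methyltransferase gene ICMT, which uses S-adenosylmethionine, and the protease gene ZMPSTE24, had log2 changes of 0.024 and -0.015.

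**Figure D4:**
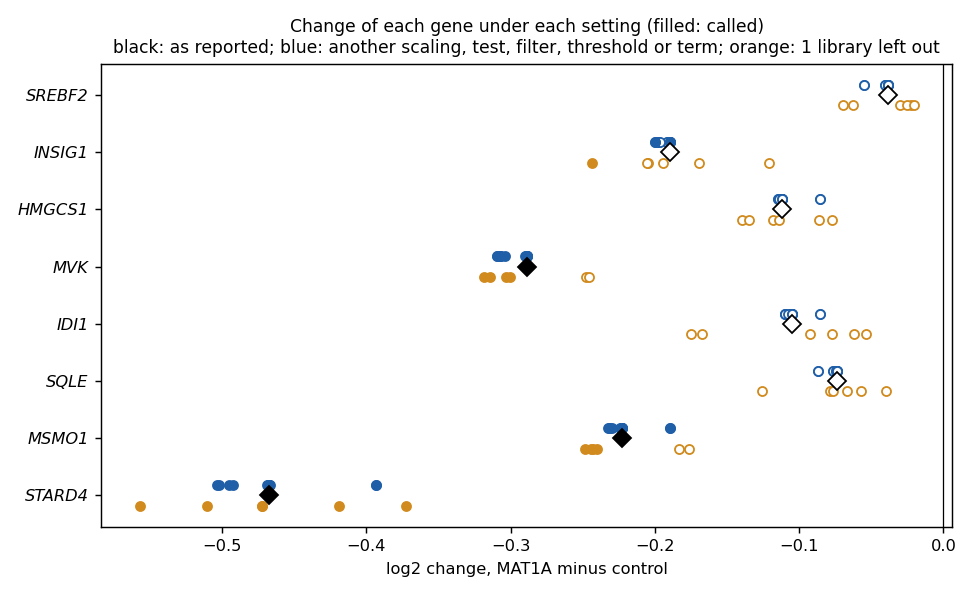
Log2 change of each member (x axis, MAT1A minus control) as reported (black diamonds), under 13 other settings (blue) and with 1 library left out (orange); filled symbols were called. All values lie below 0, and STARD4, between -0.56 and -0.37, is filled throughout.

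The genes whose values over the 6 libraries were most like the mean of the 8 members, among 10543 others with a mean of at least 5, included PLAG1, TGFBR1, DRAM1 and SERTAD2, with Pearson correlations of 0.990, 0.988, 0.987 and 0.983. The 6 points share the difference between groups and library depth, so these figures are descriptions. PLAG1, a zinc finger factor gene, stood at 7.87 and 6.13 in the control and MAT1A means, and TGFBR1, a receptor kinase gene, at 27.9 and 23.5. None of these 4 is on the lists of sterol genes used here.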

How the data were processed

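RNA was measured in 6 libraries of 5637 cells, 3 per group, grouped and numbered by their titles. The table of 13271 genes was deposited as signal values and not raw counts: judged from the values themselves, the authors divided whole reads by a scaled library size (CPM-like). Per the submitters' processing notes, STAR 2.6.0c, featureCounts, edgeR and hg38 were used; settings, filters and annotation were not given in the sources used here. In all 6 columns 100% of values were whole multiples of 1 step to within 0.001 reads, which gave the recovered reads; 3 reads correspond to values of 0.140 to 0.172. This floor covers counting error only, since reads carry no molecular identifiers; the 95% intervals are limma's, from the scatter among libraries.

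The test planned for scaled values was used: limma 3.58.1 (R 4.3.3) with an intensity trend on log2(value + 1), over 12866 genes that reached 1 in 3 or more libraries, Benjamini-Hochberg adjusted, called under 0.05. The log2(value + 1) scale understates changes of low genes. The fit was tested on simulated data. Alternatives on the recovered reads were limma-voom, edgeR 4.0.16 and DESeq2 1.42.0; edgeR called 1426 genes. The members and lists were chosen with earlier results of these data known, so they are described by counts and medians. Named were all members, up to 4 called genes per list and direction, the 2 most abundant genes of a list with none called, and the 5 genes most like the members; others are marked. Some genes are not reported here. Same-numbered libraries deviated together (correlations of 0.246, 0.178 and 0.191 for numbers 1, 2 and 3), a hint of pairs that no label states. Only the replicate block and the same-numbered differences took the numbers as pairs. The main fit used the group alone, so its p-values, standard errors and intervals are unpaired. Positions and exons are from GENCODE release 29, which matched 13211 symbols; promoters are from RefSeq.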

Additional observations from a re-analysis of the deposited data

How the results depend on the processing

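All 8 members kept a log2 change below 0 in all 19 alternatives. The filters, the stricter threshold and the replicate block leave that value as it was, so the sign could not differ there. The number of members called lower (3) was 1 with an adjusted p under 0.01 (STARD4), and 2 to 3 with 1 library left out; their median log2 change (-0.15) ranged there from -0.21 to -0.099. STARD4 was called in 19 of 19 alternatives, MVK in 16 and MSMO1 in 15; INSIG1, not called as reported, was called in 4. Scaling by TMM, DESeq2 size factors or the upper quartile changed no call of a member. With the replicate block INSIG1 was gained, and no other member's call changed. Over all genes, 952 were lower and 516 higher. An adjusted p under 0.01 gave 488 and 175, DESeq2 gave 319 higher, the replicate block 974 higher, removal of each library's length and GC trend 807 higher and both together 1109 higher. With 1 library left out, 571 to 989 were lower and 225 to 669 higher. Of the 83 tested pathway genes outside the 8, 1 was lower and 4 higher, where 7.4% and 4.01% of all tested genes were. The lower count was 0 with DESeq2 or with an adjusted p under 0.01, 3 with the replicate block, 2 once length and GC trends were removed (block or not), and 0 to 1 with 1 library left out. The higher count was 2 with an adjusted p under 0.01, 7 once length and GC trends were removed (block or not), and 2 to 5 with 1 library left out. Fewer samples enter the fits with 1 library left out; the cause of the other moves was not tested. STARD4 and MVK rested on 226 to 418 reads per library.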
